A study of Mus musculus with 2 samples.

Results

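The ribosomal protein genes of the cytosol were compared between 2 arrays of mouse embryonic stem (ES) cells. They were taken by name: every gene whose symbol starts with Rpl or Rps followed by a digit or p was a member, except the Rps6k kinases, and only probe sets annotated to 1 gene were used. This gave 74 genes of 17097, of which 48 belong by name to the large subunit and 26 to the small subunit. A gene was read from its brightest probe set, the one with the highest mean of both arrays. Of 90 protein-coding RefSeq genes that the same name rule takes, 73 had such a probe set, matched by gene identifier, and 17 had none and were not analysed here. The members include 6 paralogs, 3 pseudogenes and Rps19bp1, a binding partner of a ribosomal protein that is no subunit. Pseudogenes were named so from their symbols alone, and RefSeq may class some of them as protein-coding.

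The cells carried the label of strain C57BL/6 and grew without feeder cells in a medium with ESGRO, a source of leukaemia inhibitory factor. Both groups received lentivirus from a U6 promoter vector with puromycin resistance, with scramble RNA in the control (control KD) and a short hairpin RNA directed at Tet2 in the other (TET2 KD). Selection with puromycin lasted 72 hours in both, and total RNA (2 µg per sample) was copied from an oligo(dT) primer and labelled with biotin. Each group is 1 array, so no difference has an error or a test, and precision is limited by there being 1 of each. All values are log2 signals, and a difference is TET2 KD minus control KD, as the arrays are labelled. Where a pair of levels is given, the array labelled control KD comes first.

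The labels were checked against the genes that should bear them out. Tet2, the dioxygenase of 5-methylcytosine that the hairpin targets, read 5.62 and 5.57 in its brighter probe set and 5.48 and 5.22 in its dimmer one, so it did not separate the arrays by 2-fold and the arrays are named by their labels only. Of 14 ES cell markers measured, 10 reached the floor of 2.55, the median of all values, on both arrays (summed linear signal of the list 3380 and 3387), and the defining factors Pou5f1 (1.07 and 1.29) and Nanog (1.01 and 0.97) were under it. Klf4 (5.87 and 6.88) was the 1 ES cell marker at or above the floor that passed 2-fold. Markers of other tissues were present: the summed linear signal of 9 neuron markers was 3127 and 3205, that of 9 pituitary markers 3622 and 90.3, and that of 9 nasal and airway markers 672 and 40.9. In the pituitary list 4 genes and in the nasal and airway list 6 genes were lower in TET2 KD by at least 2-fold. Xist, the RNA of the inactive X chromosome, read 9.34 and 3.62, and the Y-linked genes Eif2s3y and Kdm5d, under the floor on the first array, read 6.14 and 4.52 on the second. The difference of Eif2s3y, 5.25, was the highest of all genes at or above the floor. The Y-linked genes Uty (1.29 and 1.34), Usp9y (1.17 and 1.04), Zfy1 (2.24 and 2.27) and Zfy2 (1.65 and 1.64) were under the floor on both arrays. The part of these transcripts in the results below was not tested, and in bulk RNA fewer cells of a type and less RNA per cell cannot be told apart. The signal at the 3′ end of Actb exceeded that at its 5′ end by 1.23 and 1.11, and that of Gapdh by 0.40 and 0.27. These gaps were smaller on the second array, whereas that of the small subunit ribosomal RNA was larger (0.53 and 0.73).

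Ribosomal proteins and ribosomal RNA form the small subunit, which binds mRNA and reads its codons, and the large subunit, which joins amino acids and releases the growing chain through a tunnel. Cells make the proteins in matched amounts, and their mRNAs are among the most abundant of dividing cells. Most of these mRNAs begin with a terminal oligopyrimidine (TOP) tract, an unbroken run of C and U through which growth signals control their translation. In pluripotent cells, ribosome supply is known to be tied to rapid division.

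Start regions of 8 members are printed to show this feature, which the choice of members did not use and which 7 of the 8 share. They span members that read lower, Rps18, Rps10, Rpl35, Rpl28, Rpl27a and Rps9, and members that read higher, Rpl15 and Rpl7l1, and they were picked with those values known. Each runs 5′ to 3′ over 60 bases, 40 before the annotated start and 20 from it, from RefSeq on GRCm38.p6, and capitals mark unbroken runs of at least 8 C or T.
Rps18, chr17:33955646-33955705, minus strand: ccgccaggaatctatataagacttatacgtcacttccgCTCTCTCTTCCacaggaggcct
Rps10, chr17:27635225-27635284, minus strand: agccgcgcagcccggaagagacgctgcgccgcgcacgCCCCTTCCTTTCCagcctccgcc
Rpl35, chr2:39005112-39005171, minus strand: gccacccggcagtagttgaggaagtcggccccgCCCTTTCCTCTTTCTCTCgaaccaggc
Rpl28, chr7:4792925-4792984, plus strand: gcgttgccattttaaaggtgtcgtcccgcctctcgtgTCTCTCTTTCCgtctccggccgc
Rpl27a, chr7:109519155-109519214, plus strand: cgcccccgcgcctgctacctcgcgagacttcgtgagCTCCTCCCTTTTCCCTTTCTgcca
Rps9, chr7:3704001-3704060, plus strand: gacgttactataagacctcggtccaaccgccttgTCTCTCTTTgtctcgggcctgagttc
Rpl15, chr14:18270967-18271026, minus strand: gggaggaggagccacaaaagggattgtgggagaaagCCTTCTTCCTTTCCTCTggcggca
Rpl7l1, chr17:46782637-46782696, minus strand: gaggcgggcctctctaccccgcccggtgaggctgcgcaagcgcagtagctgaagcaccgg

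The 7 subunit genes printed have a run of 9 to 20 bases that spans the annotated start, and Rpl7l1, the paralog, has none of 8 or more. Of the 74 members, 58 matched an entry of the RefSeq start table, and 45 (77.6%) of these had such a run within 40 bases of either side of a start, beside 32.6% of 27025 genes of the table. The word CCGGAAG, the core of the ETS family site, was searched on both strands from 250 bases before to 50 after each start and lay in 24 members (41.4%), beside 9.93% of all genes. AAGATGGC, part of the YY1 site, was in 5 members (8.62%) beside 3.19%, and CACGTG, the E-box of MYC, in 6 (10.3%) beside 8.09%. The median difference between the arrays was -0.047 for the 44 members at or above the floor with a pyrimidine run and -0.074 for the 13 without one. With CCGGAAG it was -0.049 for 23 members and without it -0.053 for 34. A match to these letters is a description and shows no bound factor.

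Cytosolic ribosomal protein genes were slightly lower on the second array, labelled TET2 KD, as deposited, in 66 of the 72 members at or above the floor, although centring each array on its median over all 17097 genes brought this to 38 of 72 (52.8%), beside 37.0% of all genes. The share below 0 was 91.7%, beside 52.1% of the 11174 genes at or above the floor. The median difference was -0.055, or 96.3% of the control level, beside -0.0071 for all genes. Differences ran from -0.29 for Rps9 to 0.15 for Rpl3, and 0 of 72 passed 2-fold in either direction, where 2.59% of all genes did (1.41% lower and 1.17% higher). None passed 1.5-fold, where 7.2% of all genes did. However, 51 members had a mean level of 9 or more, and of the 279 other genes at that level only 8 passed 1.5-fold. No error can be set on these differences, since there is 1 array a group and the genes are not replicates.

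The size of the offset depended on how the arrays were scaled. Centring over the 17097 genes, 1 probe set each (array medians 4.11 and 4.06), moved the median of all genes to 0.046 and that of the members to -0.0014, as it adds 0.053 to every difference. After quantile normalization the medians were 0.015 and -0.029, with 55 of 72 members (76.4%) below 0, beside 45.5% of all genes. Centring over all probe sets, added after the data had been seen, adds 0.019 and left 62 of 72 members below 0 beside 46.4% of all genes, and centring over the genes at or above the floor, also added, left 46 of 72 beside 40.2%. The members' median minus that of all genes was -0.047 as deposited, which no centring can alter, -0.043 after quantile normalization and -0.041 after a smooth curve of difference on level was subtracted.

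**Figure D1:**
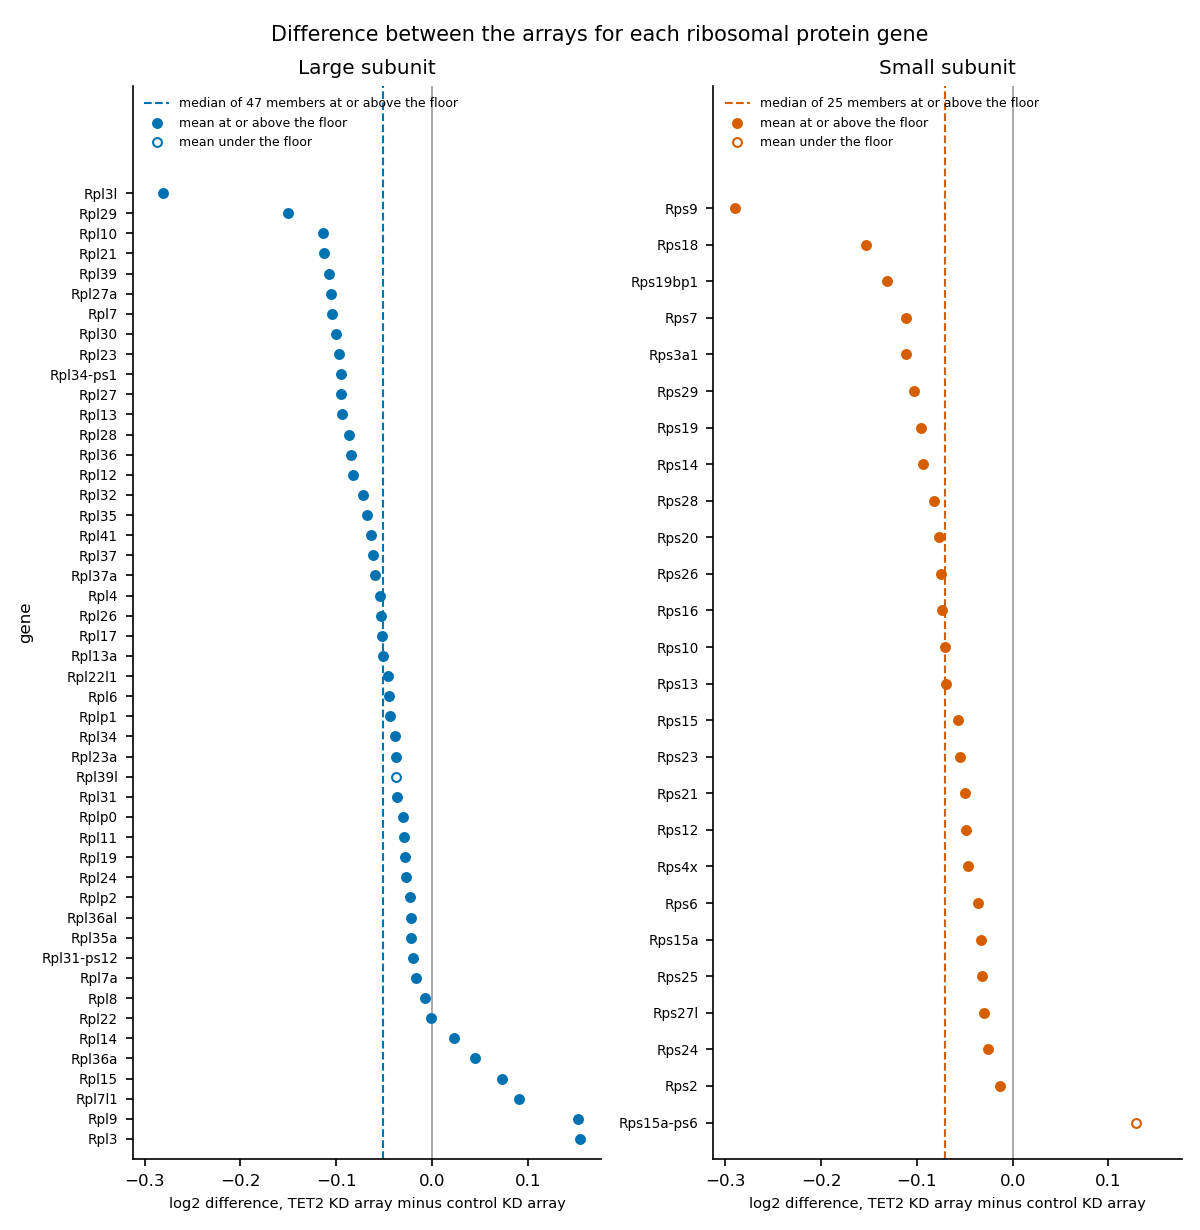
Log2 difference between the arrays (x axis) for each of 74 ribosomal protein genes (y axis), with the large subunit on the left and the small subunit on the right. Filled points are genes with a mean at or above the floor, open points the 2 under it, and dashed lines the medians of 47 large (-0.052) and 25 small subunit genes (-0.071) as deposited. Nearly all filled points lie left of 0, and the 6 filled points at its right are large subunit genes, as deposited, and after centring 22 of 47 large and 16 of 25 small subunit genes are left of 0.

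Of 47 large subunit genes that reached the floor, 41 (87.2%) were below 0 as deposited, beside 52.1% of all genes. Their median was -0.052 as deposited and 0.0015 after centring. Apart from the paralog Rpl3l, described with the other paralogs, the genes furthest below 0 were Rpl29, a heparin-binding subunit, at 9.03 and 8.88 (difference -0.15), and Rpl10, which helps to complete the subunit before it joins translation, at 9.79 and 9.68 (-0.11). Rpl21 read 9.68 and 9.57 (-0.11), and Rpl39, a small protein that lines the exit tunnel, 10.19 and 10.09 (-0.11). Rpl27a (9.70 and 9.60), Rpl7 (9.40 and 9.29) and Rpl30 (9.57 and 9.47) differed by -0.11, -0.10 and -0.10. These genes lay at 90.1% to 93.3% of the control level, with Rpl29 the furthest away. They were picked as the lowest, and centring adds 0.053 to every difference, so it could bring none of these 7 probe sets to 0. It would bring above 0 a further probe set of Rpl10 (-0.049), of Rpl21 (-0.011) and of Rpl7 (-0.047). Others of Rpl21 (-0.058), Rpl7 (-0.092) and Rpl39 (-0.099) would stay below it.

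Groups of the large subunit with a shared role differed by little from one another. All 9 genes measured at the exit tunnel were below 0, beside 91.7% of all members, from -0.00073 for Rpl22 to -0.11 for Rpl39, with a median of -0.052. After centring 4 of 9 were below 0, beside 52.8% of all members, with a median of 0.00063. Rpl4 (9.85 and 9.79) and Rpl17 (9.53 and 9.47), which form the narrow part of the tunnel, differed by -0.054 and -0.052, Rpl19 (9.55 and 9.52) by -0.028, and Rpl23a and Rpl35 at its mouth by -0.038 and -0.068. The stalk that recruits elongation factors gave -0.031 for its base Rplp0 (8.83 and 8.80), -0.044 for Rplp1 (10.34 and 10.30), -0.023 for Rplp2 (9.71 and 9.69) and -0.083 for Rpl12 beside them (7.71 and 7.63). Rpl11, which binds MDM2 when it is free of the ribosome, read 4.18 and 4.16. All 4 stalk genes and Rpl11 lay within 0.1 of 0, and after centring only Rpl12 of these 5 was below it.

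The 6 members at or above the floor that read higher as deposited were all of the large subunit, though after centring 34 members did, 9 of them of the small subunit. Rpl3, a core protein near the catalytic centre, read 6.32 and 6.48 (0.15), and Rpl9, a protein of the stalk base, 5.12 and 5.27 (0.15). Rpl15, an early assembling protein, read 8.35 and 8.42 (0.073), and Rpl7l1, a paralog of Rpl7, 8.18 and 8.27 (0.091). Rpl36a (2.61 and 2.65) and Rpl14 (3.45 and 3.48) lay close to the floor and differed by 0.044 and 0.023. Each of the 6 had a mean under 9, and after centring these differences were larger (0.21 for Rpl3 and 0.13 for Rpl15).

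In the small subunit the median was -0.071 as deposited, or 95.2% of the control level. Here 25 of 25 genes that reached the floor were below 0 as deposited, beside 52.1% of all genes. After centring 16 of 25 were, beside 37.0% of all genes, and after quantile normalization 23 of 25, beside 45.5%. Rps9, a protein of the mRNA entry side, stood furthest below at 5.89 and 5.60 (-0.29). Rps18, a protein of the subunit's head, read 9.47 and 9.32 (-0.15), but its probe set has exactly the values of a probe set of another gene, Dbf4, so which transcript they describe is not known. Rps7, one of the small subunit proteins that can bind MDM2, read 10.07 and 9.96 (-0.11), Rps3a1 9.76 and 9.65 (-0.11), Rps29 10.89 and 10.79 (-0.10) and Rps19, the gene most often mutated in Diamond-Blackfan anemia, 9.14 and 9.05 (-0.095). Rps19bp1, the binding partner, read 7.24 and 7.11 (-0.13).

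Other small subunit genes lay nearer to 0. Rps2 of the mRNA entry channel read 9.40 and 9.39 (-0.013), Rps23 of the decoding centre 9.81 and 9.75 (-0.055), and Rps6, the target of S6 kinases, 10.31 and 10.28 (-0.037). Rps24 (10.23 and 10.21) differed by -0.025, and it too shares both values with a probe set of another gene, Ruvbl2. The 2 other members with such shared values are Rpl36a, with Sall3, and Rpl3l, with Qpctl. Without these 4 the counts as deposited were 63 of 68 members below 0 and 23 of 23 in the small subunit, beside 52.1% of all genes. With all members kept, centring left 38 of 72 and 16 of 25 below 0. When probe sets whose names mark them as shared between transcripts were left out, 19 of 25 members were below 0. In the small subunit it was then 7 of 8, beside 51.7% of all genes.

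Small and large subunit medians differed by 0.019, the large being nearer to 0. This gap was 0.0068 when probe sets marked as shared between transcripts were left out and 0.040 when all probe sets of a gene were averaged. Among members with a mean level of 9 or more, the medians were -0.057 for 32 large and -0.074 for 19 small subunit genes. The robust SD of the differences was 0.047 in the large and 0.037 in the small subunit. These SDs describe single genes, and no error can be set on the gap between the medians.

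Members were also split by their level. A level of 9 was chosen after the values had been seen. Of the 51 members with a mean of 9 or more, 51 were below 0, from -0.15 for Rps18 to -0.0071 for Rpl8, beside 55.6% of the 279 other genes at that level, whose median was -0.0086. After centring 32 of the 51 were below 0 beside 21.5% of the others, and after quantile normalization 43 of 51 beside 34.1%. Of the 21 members from the floor to 9, 15 (71.4%) were below 0 as deposited. Beside this, 49.1% to 53.9% of other genes were, in ranges of level from the floor to 9. After centring 38 of all 72 members were below 0, and 32 of these were among the 51. Most of the 21 were therefore not below it. The robust SD of the 21 was 0.080, compared with 0.041 above. For other genes the robust SD was 0.20 between the floor and 4, 0.052 between 9 and 10 and 0.054 from 10 up. The member median was -0.071 between 9 and 10 and -0.051 from 10 up. Differences of this size lie well within the common scatter at low levels and are of the order of the robust SD at high ones.

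**Figure D2:**
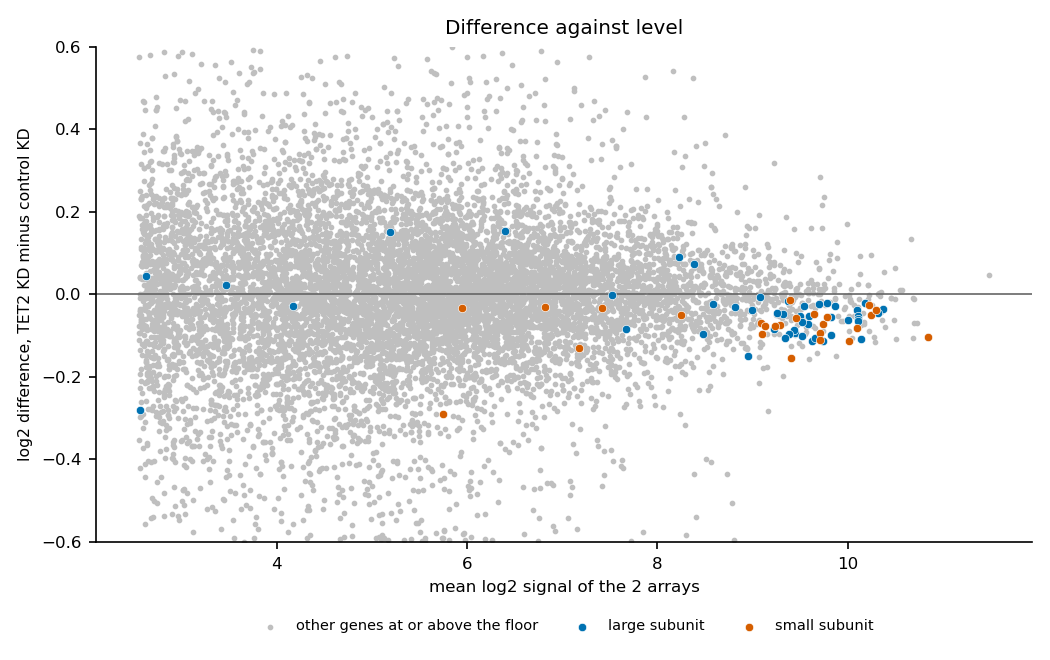
Log2 difference between the arrays (y axis) against the mean log2 signal of both (x axis) for genes at or above the floor. Grey points are 10331 other genes, with 771 outside the axis of ±0.6 not drawn, blue points large and orange points small subunit genes. Members at a level of 9 or more lie below 0 as deposited (51 of 51) within a narrow band, with 32 of 51 below 0 after centring, and those at lower levels scatter with the other genes.

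Further probe sets of the same genes were not used above and, as deposited, read in the same direction in most cases. The 74 members have 137 probe sets, and 63 of these stood for no gene. Of those 63, 53 were at or above the floor and 44 of the 53 were below 0 as deposited, beside 52.1% of all genes. Their median was -0.049, and centring, which adds 0.053 to every difference, would bring it above 0. At a mean of 9 or more 19 of 20 further probe sets were below 0 as deposited, between -0.12 and 0.0052. Beside this stand 55.6% of 279 other genes, each read from its brightest probe set. From the floor to 9 it was 25 of 33 further probe sets, between -0.34 and 0.088, beside 49.1% to 53.9% of other genes in ranges of that level. These probe sets hybridised to the same 2 RNA samples and are no replicates of the conditions.

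In 31 members 2 or more probe sets reached the floor, and 22 of these had all of them below 0 as deposited, 1 (Rpl15) all above 0 and 8 some on either side. Rpl41, the smallest ribosomal protein, had the widest range of these 8, from -0.24 to 0.0013, and Rpl7l1 followed with -0.11 to 0.091 and Rpl23 with -0.098 to 0.088. Rps24 (-0.072 to 0.065), Rpl17 (-0.052 to 0.062) and Rpl13 (-0.094 to 0.0069) came next. Of the 3 Rpl7l1 probe sets the brighter ones were above 0 (0.091 and 0.086) and the dimmest, at 3.15 and 3.05, was below it. Averaged over its probe sets, Rpl9 was at 0.0094.

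**Figure D3:**
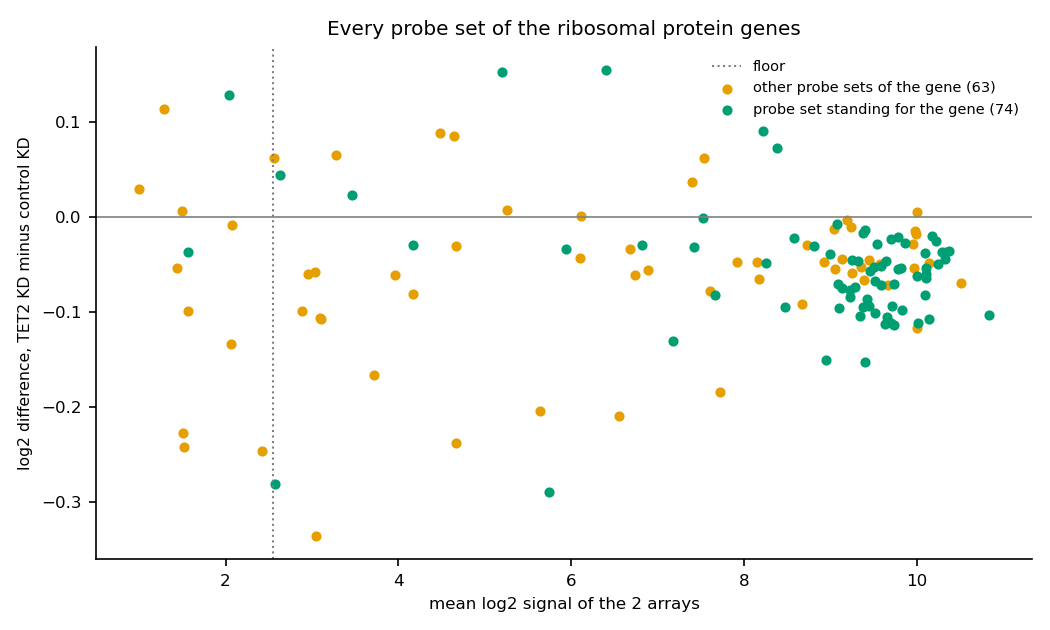
Log2 difference between the arrays as deposited (y axis) against mean log2 signal (x axis) for all 137 probe sets of the members. Green points are the 74 probe sets that stand for a gene, orange points the other 63, and the dotted line is the floor of 2.55. Both kinds of point gather below 0 at high levels and scatter more widely at low ones.

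Paralogs and pseudogenes resemble other members in sequence, and how far their probe sets read the parent mRNA is not known. Rpl22l1, which can stand in for Rpl22, read 9.34 and 9.30 beside 7.52 and 7.52 for Rpl22, so the differences were -0.046 and -0.00073. Rps27l, a p53 target, read 6.83 and 6.80, and Rpl36al 8.59 and 8.57. Rpl3l, the muscle paralog of Rpl3, read 2.71 and 2.43, crossing the floor, with a difference of -0.28 against 0.15 for Rpl3. Rpl39l, a testis paralog, was under the floor on both arrays (1.59 and 1.55), as was the pseudogene Rps15a-ps6 (1.98 and 2.10). Rpl34-ps1 read 9.43 and 9.33 beside 9.01 and 8.98 for Rpl34, and Rpl31-ps12 read 10.19 and 10.17 beside 10.39 and 10.36 for Rpl31. Without paralogs, pseudogenes and Rps19bp1, 59 of 64 subunit genes were below 0 as deposited, beside 52.1% of all genes. Their median was -0.056, to which centring adds 0.053.

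Genes mutated in Diamond-Blackfan anemia, a failure of red cell formation, come from both subunits. Of the 15 measured, 14 (93.3%) were below 0 as deposited, beside 91.7% of all members and 52.1% of all genes. Their median was -0.068, and Rpl15 was the exception. After centring 9 of the 15 were below 0, beside 52.8% of all members and 37.0% of all genes, with a median of -0.015. Rps26 (9.17 and 9.10), Rps28 (10.14 and 10.06) and Rpl27 (8.52 and 8.43) differed by -0.075, -0.082 and -0.095. Rpl35a (9.79 and 9.77), Rps10 (9.78 and 9.71) and Rpl26 (10.13 and 10.08) differed by -0.022, -0.071 and -0.053, and Rps15a (5.96 and 5.93) by -0.033.

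Genes that make ribosomes or work with them were read from lists that share no member with the ribosomal protein genes. Of the subunits whose names the rule passes over, Rpsa read 9.35 and 9.31 and Fau, a fusion of a ubiquitin-like protein with a small subunit protein, 9.65 and 9.61, so both were within the range of the members. Mitochondrial ribosomal protein genes, whose products translate the few proteins encoded in mitochondria, lay mostly on the other side of 0. Their median difference was 0.040 as deposited and 0.093 after centring. As deposited 46 of 72 were above 0, beside 47.4% of all genes, and 0 passed 2-fold, beside 2.59%. Their levels were lower than those of the cytosolic genes, with a median on the control KD array of 6.83 beside 9.48, and the 2 with a mean of 9 or more, Mrpl18 (9.08 and 9.01) and Mrpl30 (9.39 and 9.33), were below 0 like the 51 cytosolic genes there. Mrpl54 (6.56 and 6.89) and Mrps6 (6.20 and 6.51) were furthest above 0, and Mrps18b (5.46 and 5.29) furthest below. Mitochondrial large and small subunit medians were 0.051 and 0.034.

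**Figure D4:**
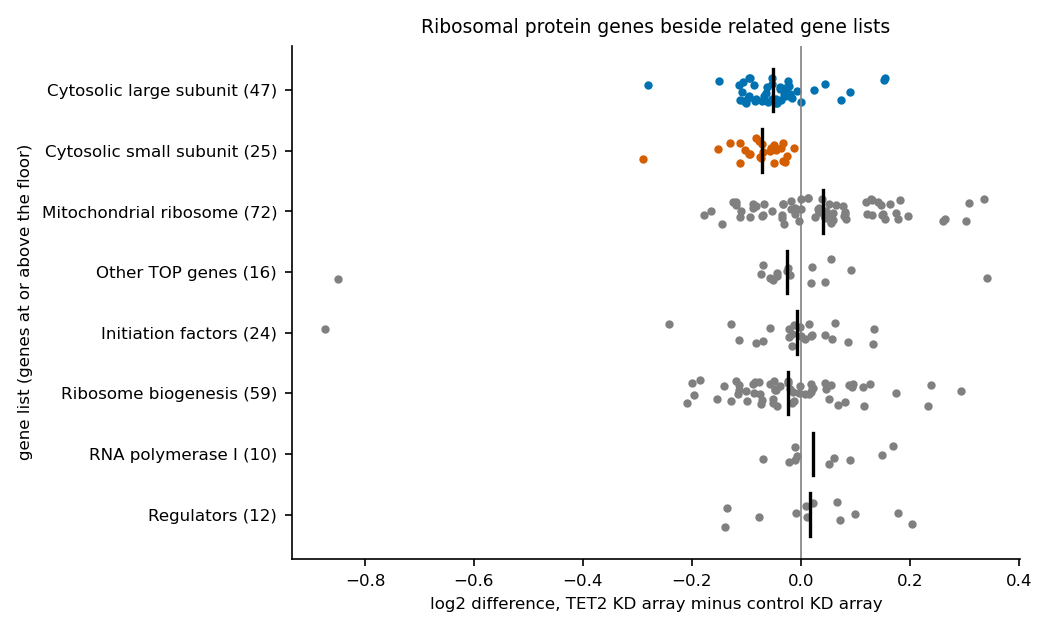
Log2 difference between the arrays as deposited (x axis) for genes at or above the floor in 8 lists (y axis, number of genes in brackets). Points are genes, spread vertically at random, and black bars are medians. Cytosolic ribosomal protein genes lie mostly left of 0 and mitochondrial ones mostly right of it (medians -0.052, -0.071 and 0.040). After centring of the arrays the large subunit median is 0.0015.

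Of 16 other translation genes with a TOP tract, 10 (62.5%) were below 0 as deposited, beside 52.1% of all genes, with a median of -0.025. Eef1a1, the main elongation factor, read 10.37 and 10.32 and Eif3f, an initiation factor subunit, 10.76 and 10.69. Eef2, the translocase of elongation, stood apart from them at 9.19 and 8.34 (-0.85), which is short of 2-fold, and the poly(A)-binding protein Pabpc1 lay above 0 at 5.63 and 5.97. The 24 initiation factors had a median of -0.0065, with 13 (54.2%) below 0, near the 52.1% of all genes, and Eif4g3 (6.10 and 5.22) at -0.87. The other probe set of Eif4g3 above the floor differed by 0.17.

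Of 59 ribosome biogenesis genes, 37 (62.7%) were below 0 as deposited, beside 52.1% of all genes, with a median of -0.024. Past 2-fold were 0 of the 59, beside 2.59% of all genes. Fbl, the methyltransferase of ribosomal RNA, read 6.73 and 6.62, but 5.89 and 5.92 in its other probe set. Nop56, its partner, read 6.38 and 6.20, whereas Nob1, a nuclease of small subunit maturation, read 6.78 and 7.08. The 10 genes of RNA polymerase I transcription had a median of 0.022, with 5 (50%) below 0, near the share of all genes. Of 12 regulators of ribosomal protein genes, 8 were above 0, beside 47.4% of all genes, with a median of 0.017. Among the 8 were Gabpa, the ETS factor (5.67 and 5.88), and Mycn (9.14 and 9.21). Among 8 genes of p53 and ribosomal stress, Zmat3 was lower by 2-fold or more (9.68 and 7.36), Mdm2 read 5.01 and 5.10 and Cdkn1a 7.22 and 7.28, with its other probe set at 4.51 and 5.43. The signs of the medians for TOP, initiation, biogenesis and p53 genes turned to above 0 after centring of the arrays, which the median of all genes did as well.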

How the data were processed

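Signals of 45141 probe sets were measured on 2 Affymetrix arrays, 1 per group. The values are the authors' deposited log2 signals; the submitters' processing notes name Affymetrix Expression Console. How signals were summarised and normalized is not given in the sources used here, and the log base was read from the range of the values. Array medians were 2.56 and 2.55, and scanner files were not used here. The platform annotation gave 28898 probe sets 1 symbol, 551 several and 15588 none. Whether values and names are aligned throughout is not known: 1892 probe sets share both values with another.

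The floor, the median of all values other than controls, was 2.55, which the mean of both arrays reached in 11174 of 17097 genes. A call needed 2-fold, a log2 difference of 1. There are no p-values. Any member could be named. Always named were the 8 largest differences each way, members under the floor, the 6 with the widest probe set ranges of mixed sign, the role subsets and the paralogs. Of other lists, those of cell type markers excepted, genes past 2-fold and Rpsa and Fau were always named too. Further genes of other lists were picked after their values were seen. The members and lists were chosen with earlier results of these data known. List symbols were matched through RefSeq names. Alternatives (12 planned, 3 added after seeing the data) covered scaling ("centring" means each array on its median over the 17097 genes unless stated), floor, probe set choice, membership and threshold. The scripts were tested on simulated data. Python 3.11.15, pandas 2.3.3 and statsmodels 0.14.6 (lowess fraction 0.3) were used.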

Additional observations from a re-analysis of the deposited data

How the results depend on the processing

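With 1 array per group, nothing below has an error, and a median was counted as moved when it shifted by 0.01 or more. No paired analysis was possible because each group is 1 array. Centring over genes gave medians of -0.0014 for all members, 0.0015 for the large and -0.018 for the small subunit, 38 members below 0, and 0.093 for mitochondrial genes. It also turned the medians of Rpsa and Fau (0.0094), TOP genes (0.028), initiation factors (0.047), biogenesis (0.029) and p53 genes (0.012). Quantile normalization gave -0.029, -0.023 and -0.050 for all, large and small, 0.060 for mitochondrial genes and 0.0051 for initiation factors. Subtracting the level curve gave -0.040 for the large subunit. The mean of all probe sets gave -0.086 for the small subunit, 0.040 for large minus small, 0.0059 for initiation factors and -0.0071 for polymerase I genes, and raising the floor to the 75th percentile also gave -0.0071 for the latter. Without probe sets marked as shared, 25 members were left, 19 of them below 0, with -0.056 for the small subunit and 0.0068 for large minus small, 0.019 for TOP genes and 0.021 for initiation factors. Of the settings added after seeing the data, centring over all probe sets gave -0.035, -0.032 and -0.051 for all, large and small, 0.060 for mitochondrial genes and 0.013 for initiation factors. Centring over genes at or above the floor gave -0.013, -0.010 and -0.029, then 0.082, with 0.017 for TOP genes, 0.035 for initiation factors and 0.017 for biogenesis. A floor at 9 left 2 mitochondrial genes, whose median reversed to -0.062. Related genes past 2-fold numbered 1, but 2 without a floor, 3 at 1.5-fold and 0 with a floor at 9. Members past 2-fold stayed at 0 in the 12 planned and 3 added alternatives, the 1.5-fold threshold included.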

Other observations

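A further 15 probe sets carry a ribosomal protein symbol together with that of another gene, so they name no gene and are not among the members. Of these, 12 were at or above the floor and 10 of the 12 were below 0 as deposited, beside 52.1% of all genes. The median of the 12 was -0.066. The lowest was at 6.71 under the control KD label and 5.54 under TET2 KD (-1.16, past 2-fold), and the next differed by -0.66. The control probe sets for small subunit ribosomal RNA, which is not polyadenylated, read 9.07 and 9.26 at the 3′ end, 7.88 and 7.74 in the middle and 8.54 and 8.53 at the 5′ end.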
